A study of Mus musculus with 8 samples.

Results

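Muscle stem cells (satellite cells) were compared between unperfused mice and mice perfused with buffer (PBS), both without fixation and without injury. The comparison covered the 10850 gene symbols, of 24328 in the table, that reached at least 1 FPKM (fragments per kilobase of transcript, scaled to the mapped fragments of a library, a unit inferred from the values and the named software) in at least 2 of the 4 libraries of these groups. All mice had a C57BL/6 background and were 2 months old. The 2 unperfused libraries carried the genotype label wild type. The 2 PBS-perfused libraries carried the label Pax7-nGFP, the name of a reporter line in which a nuclear green fluorescent protein follows the regulatory sequence of Pax7. Perfusion and genotype thus differ together and cannot be told apart in any value below. Unfixed cells were stained before sorting for Vcam, which marks satellite cells, and for CD31, CD45 and Sca-1, which mark other cells. Whether the fluorescent reporter was also used is not stated. Another 4 libraries shared the estimate of spread in the fit, 2 from PFA-perfused mice (Pax7-nGFP, tissue fixed with paraformaldehyde) and 2 from injury-activated cells (wild type, unperfused, 2.5 days after an injury). RNA was measured by sequencing of full-length cDNA made from polyadenylated RNA with a SMART-Seq kit, which primes at the poly(A) tail and suits small numbers of cells. The design text names 2 sequencers and the labels 1, and which libraries ran on which is not given. Whether a group's libraries came from separate mice or from pools is not stated, so p-values measure the spread between libraries, which may be technical. Depth is unknown, because the values are not counts.

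Satellite cells lie between the muscle fibre and its basement membrane. At rest they carry the transcription factor Pax7 and are held out of the cell cycle by Notch signalling, among other inputs, and on injury they turn on Myod1, divide and fuse. Taking muscle apart with enzymes and sorting the cells is known to switch on immediate early genes, heat shock chaperones and inflammatory genes within the isolation itself. Heat shock genes are driven by HSF1, a factor that binds head-to-head repeats of the letters GAA, and many inflammatory genes are driven by NF-kB, a dimer held in the cytoplasm by Nfkbia until a signal removes it.

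The promoters of genes from these last groups are shown first, because both groups have a known binding sequence and most of their members past the filter were lower in unperfused cells. Each stretch comes from the 250 bases before a RefSeq start site on GRCm38.p6, is written 5′ to 3′ on the strand of its gene, and has the matched letters in capitals. The letters GAANNTTC, which read the same on both strands were present in this window for 10 of 26 matched heat shock genes (38.5%) and for 7.73% of 27025 genes. A longer form, in which GAA follows after 2 more bases, contains these letters and was present for 3 of the 26 genes and for 0.514% of all genes. For NF-kB the letters GGGA, any base and TTTCC in a row, searched on both strands, were present for 6 of 30 matched NF-kB and inflammatory genes (20%), for none of the 26 heat shock genes, and for 0.414% of all genes. A match is a description of letters and not of a bound site. The genes shown were chosen for their match and their lower call, after their values were seen.

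The stretch of Hspb1 lies at chr5:135887790-135887841 (plus strand), that of Hspa1a at chr17:34972241-34972272 (minus strand), that of Dnaja4 at chr9:54699457-54699526 (plus strand) and that of Fkbp4 at chr6:128438788-128438819 (minus strand). The stretch of Hspa1b, a near-identical neighbour of Hspa1a, has the same letters at chr17:34959323-34959354 (minus strand). Hspe1 and Hspd1 are transcribed away from each other and share 1 stretch, in which the overlapping matches of both strands are joined, shown on the Hspe1 strand at chr1:55088047-55088088 (plus strand).
Hspb1: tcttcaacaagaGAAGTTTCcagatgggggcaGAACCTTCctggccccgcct
Hspa1a: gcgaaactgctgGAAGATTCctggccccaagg
Dnaja4: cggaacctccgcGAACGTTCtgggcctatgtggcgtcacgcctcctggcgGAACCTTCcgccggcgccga
Fkbp4: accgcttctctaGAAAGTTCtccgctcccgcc
Hspe1: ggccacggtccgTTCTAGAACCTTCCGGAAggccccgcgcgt
The NF-kB examples are the chemokine gene Cxcl1 at chr5:90891162-90891195 (plus strand), the NF-kB subunit Nfkb2 at chr19:46305693-46305726 (plus strand) and the inhibitor Nfkbia at chr12:55492655-55492688 (minus strand), where the match lies on the opposite strand.
Cxcl1: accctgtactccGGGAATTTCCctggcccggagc
Nfkb2: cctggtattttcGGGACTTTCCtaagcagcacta
Nfkbia: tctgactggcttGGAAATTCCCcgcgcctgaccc

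Unperfused cells had lower levels of more genes than they had higher levels. FPKM summed to 461454 and 482339 in the unperfused libraries and to 529692 and 554552 in the PBS-perfused libraries, and 9469 and 9819 symbols against 10602 and 10727 reached 1 FPKM. The test was limma on log2(FPKM + 1) with Benjamini-Hochberg adjustment over all 10850 genes, and a gene was called at an adjusted p under 0.05. It called 5981 genes (55.1%), of which 1626 (15%) were higher and 4355 (40.1%) lower in unperfused cells. Differences are given as log2(FPKM + 1) of unperfused minus PBS-perfused cells with ± the SE of the fit, a scale that understates the change of low genes. The median difference over all tested genes was -0.43. Scaling the libraries by a trimmed mean moved that median to 0.01 and gave 5720 calls (52.7%), 2920 higher (26.9%) and 2800 lower (25.8%). All 1626 higher calls were kept under this scaling, 2800 of the 4355 lower calls were kept and 1555 were lost, and 1294 further genes were called higher. No gene changed direction between the 2 sets of calls. Direction counts of the gene lists below are therefore given on both scales, and a share near that of all genes (15% higher and 40.1% lower, or 26.9% and 25.8% after scaling) is the background and no result about a list. A gene named below with its FPKM values and no other remark was called in the stated direction on both scales, with no overlap between the groups. In bulk libraries fewer cells of a type and less RNA per cell cannot be told apart.

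The calls spanned a wide range of sizes. Beyond a difference of 1 there were 1082 higher and 2843 lower genes, beyond 2 there were 427 and 737, and beyond 4 there were 92 and 35. After trimmed mean scaling the counts beyond 2 were 651 and 429. Among the largest differences, those beyond 4, genes with higher levels in unperfused cells thus outnumbered those with lower levels on both scales, with 142 against 25 after scaling. Both scales add 1 to the FPKM, which understates the change of low genes. Both unperfused libraries were under 1 FPKM for 967 tested genes, and both PBS-perfused libraries for 306. The part of this limit in the counts beyond 4 was not tested.

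**Figure D1:**
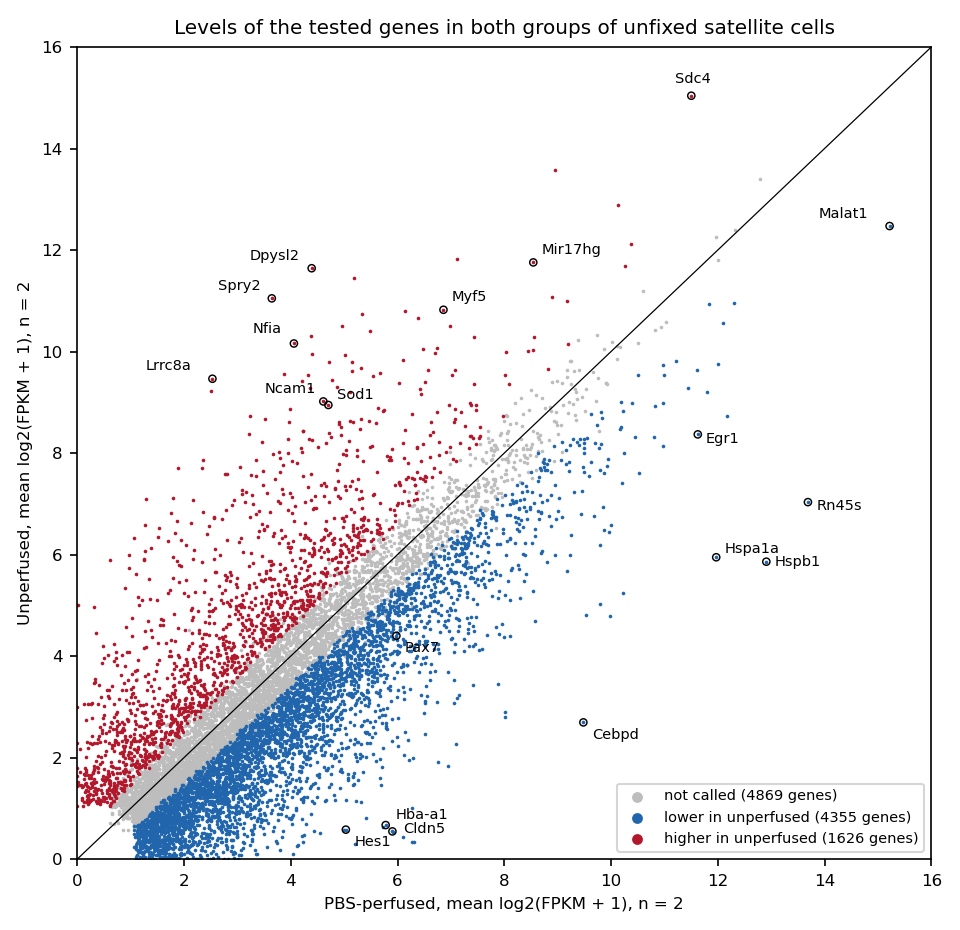
Mean level of each of the 10850 tested genes in unperfused cells (vertical axis) against PBS-perfused cells (horizontal axis), both as log2(FPKM + 1) over 2 libraries. Red points are the 1626 genes called higher and blue points the 4355 called lower in unperfused cells, grey points were not called, and the line marks equal levels. Spry2, Dpysl2 and Sdc4 lie far above the line, and Hspb1, Hspa1a and Cebpd lie far below it.

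On the log2(FPKM + 1) scale the largest rise was that of Spry2, a feedback inhibitor of receptor tyrosine kinase signalling. It was at 1768 and 2532 FPKM in the unperfused libraries and at 10.2 and 12.99 FPKM in the PBS-perfused libraries, a difference of 7.40 ± 0.27 (adjusted p = 9.17e-07). Dpysl2, a microtubule-binding protein known from growing axons, was at 2396 and 4253 FPKM in unperfused and 26.5 and 15.01 FPKM in PBS-perfused cells. The means of the groups differed 186-fold for Spry2 and 160.2-fold for Dpysl2. In the other groups of the series Spry2 was low, at 2.65 and 4.25 FPKM in PFA-perfused and 13.6 and 14.2 FPKM in injury-activated cells, while Dpysl2 was at 959 and 848 FPKM in injury-activated cells. Lrrc8a, a subunit of the volume-regulated anion channel, was at 595 and 836 FPKM against 7.02 and 3.17 FPKM. Ptrf, a coat protein of caveolae, was at 2389.8 and 3267 FPKM against 37.98 and 32.8 FPKM. The zinc importer Slc39a1 was at 486 and 726 FPKM against 3.30 and 6.55 FPKM. The largest rises thus spanned signalling, the cytoskeleton, transport and membrane structure.

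Transcription factors formed another part of the largest rises. Nfia, a nuclear factor I protein, was at 931 and 1401 FPKM in unperfused and 16.1 and 15.2 FPKM in PBS-perfused cells (6.10 ± 0.25, adjusted p = 9.17e-07). Klf13, a Krüppel-like factor, stood at 586 and 966 FPKM against 16.8 and 10.9 FPKM. Sox11, a factor best known from neural and other progenitors, stood at 709 and 1372 FPKM against 37.7 and 10.5 FPKM. The PBS-perfused libraries differed from each other for Sox11, and neither reached the unperfused range. The remaining genes of the 15 largest rises were Cdv3, Arglu1, Frat1, Gnb1, Zscan26, Dusp3 and Nmt2, with differences from 5.42 for the N-myristoyltransferase Nmt2 to 5.92 for Cdv3. In all 15 of them both unperfused libraries lay above both PBS-perfused libraries, a condition of the rule that chose them.

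On the same scale the largest fall was that of Hspb1, a small heat shock protein that holds unfolded proteins and binds actin. It was at 40.3 and 80.7 FPKM in unperfused and 6415 and 9219.7 FPKM in PBS-perfused cells, a difference of -7.05 ± 0.35 (adjusted p = 1.54e-06). Cebpd, a transcription factor induced by inflammatory signals and glucocorticoids, was at 4.48 and 6.64 FPKM against 743 and 686 FPKM. Dusp2, a phosphatase that switches off ERK, was at 0.428 and 0.269 FPKM against 50.2 and 91.03 FPKM. With the correction for GC content and length Cebpd fell further than Hspb1 (-6.89 against -5.99). The group means differed 129-fold for Hspb1, 129-fold for Cebpd and 203-fold for Dusp2, and in both groups Dusp2 was the lowest of these 3. Rps27 was at 34.7 and 20.3 FPKM against 788 and 1295 FPKM, and is uncertain because ribosomal protein genes share reads with processed pseudogenes. The uncharacterised transcript 6330403K07Rik was at 0.17 and 0.355 FPKM against 80.2 and 75.9 FPKM.

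A second part of the 15 largest falls consisted of genes known from endothelium and blood. The water channel Aqp1 was at 0.514 and 0.38 FPKM in unperfused and 59.4 and 58.5 FPKM in PBS-perfused cells, and the tight junction gene Cldn5 at 0.552 and 0.372 FPKM against 70.7 and 48.98 FPKM. The scavenger receptor Stab2 was at 1.06 and 0.951 FPKM against 56.4 and 103 FPKM, and the fatty acid binding protein Fabp4 at 2.10 and 3.13 FPKM against 101 and 146 FPKM. The alpha globin gene Hba-a1 was at 1.24 and 0.133 FPKM against 55.1 and 52.7 FPKM, and reads of Hba-a1 may be shared with its near-identical copy. Gm10052 and Rnaset2b, the latter also with a near-identical copy, were among the 15 as well, as were Rn45s and Hspa1a, which are described with their groups. Markers of these other cell types are set out in full further on, because they move with the groups.

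**Figure D2:**
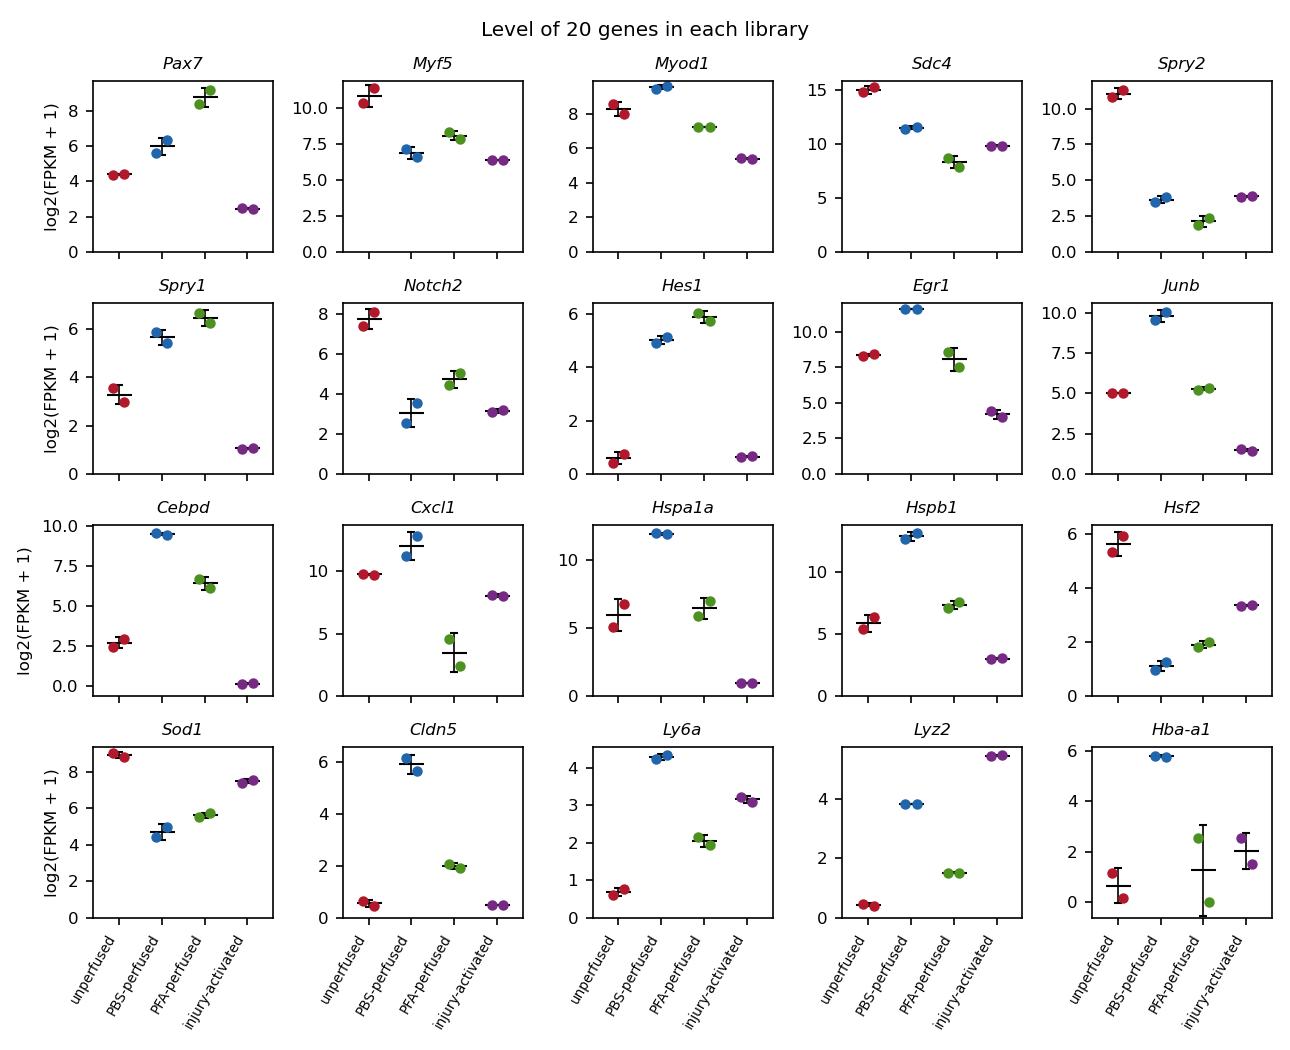
Levels of 20 genes, 1 panel a gene, as log2(FPKM + 1). Points are the 8 libraries, and bars with whiskers are the mean and SD over the 2 libraries of a group. The PFA-perfused and injury-activated libraries are shown for context. Spry2, Sdc4, Notch2, Hsf2 and Sod1 are higher in unperfused than in PBS-perfused cells, and Hes1, Junb, Cebpd, Hspa1a, Hspb1 and the markers of other cells in the last row are lower.

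Both groups carried the genes that define satellite cells. Of the 22 identity genes, 4 (18.2%) were higher and 10 (45.5%) lower in unperfused cells with a median of -0.54, and 6 and 8 with a median of -0.01 after trimmed mean scaling. Pax7, the defining transcription factor, was at 19.8 and 20.4 FPKM in unperfused and 48.3 and 79.6 FPKM in PBS-perfused cells (-1.58 ± 0.31, adjusted p = 0.00225). In PFA-perfused cells it was at 328 and 567 FPKM and in injury-activated cells at 4.59 and 4.40 FPKM, so the unfixed groups lay between them. Myf5, a second myogenic factor of satellite cells, differed the other way, with 1261 and 2598 FPKM in unperfused and 142 and 93.1 FPKM in PBS-perfused cells (3.96 ± 0.38, adjusted p = 3.13e-05). The 2 factors thus differed in opposite directions between the groups.

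Surface proteins of satellite cells also split in direction. The heparan sulfate proteoglycan Sdc4 was at 28149 and 40318 FPKM in unperfused and 2718 and 3099 FPKM in PBS-perfused cells, a difference of 3.54 ± 0.39. It made up most of the summed FPKM of the 8 defining satellite cell markers, 29852 and 43241 against 3384 and 3822. The chemokine receptor Cxcr4 was at 17.2 and 22.96 FPKM against 2.00 and 1.31 FPKM and the laminin receptor Itga7 at 170.0 and 124 FPKM against 39.2 and 54.002 FPKM. Lower in unperfused cells was Vcam1, the adhesion protein used in the sort, at 145 and 95.97 FPKM against 329 and 389.6 FPKM (-1.60 ± 0.30). Cadherin-15 (Cdh15) was at 52.8 and 32.5 FPKM against 39.02 and 56.9 FPKM, so the groups overlapped, and it was not called (-0.18 ± 0.30, or 0.35 after trimmed mean scaling). Cd34 was at 37.4 and 28.8 FPKM against 65.96 and 48.7 FPKM and its lower call (-0.77 ± 0.27) was lost after trimmed mean scaling (-0.24, adjusted p = 0.355), without PBS-perfused replicate 1 (-0.55), without unperfused replicate 2 (-0.59), and when either injury-activated library was left out (adjusted p = 0.0639 and 0.0642). The transcription factor Msc was at 21.4 and 13.9 FPKM against 222 and 128 FPKM and the secreted BMP antagonist Chrdl2 at 55.9 and 42.9 FPKM against 308 and 150.0 FPKM.

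Of 15 genes of myogenic commitment, 9 passed the filter, of which 0 were higher and 3 (33.3%) lower. After trimmed mean scaling 0 were higher and 2 (22.2%) lower. The lower shares were near those of all genes (40.1%, or 25.8% after scaling) and are no result about the list. The 3 were Myod1, Mef2c and Ckm. Myod1, which satellite cells turn on as they activate, was at 377 and 259 FPKM in unperfused and 703 and 794 FPKM in PBS-perfused cells (-1.26 ± 0.26, adjusted p = 0.00288). When transcript length and GC content were corrected for, the Myod1 difference was -0.60 and not called (adjusted p = 0.0609). After trimmed mean scaling it was -0.72 and called. It was at 150.1 and 150.4 FPKM in PFA-perfused and 42.8 and 40.7 FPKM in injury-activated cells, below both unfixed groups. Myog, which marks differentiation, was at 3.62 and 2.43 FPKM against 0.595 and 7.53 FPKM, with the unperfused values inside the PBS-perfused range, and was not called. The proliferation marker Mki67 was at 2.79 and 0.895 FPKM against 2.22 and 0.939 FPKM, also with overlap, and at 35.1 and 39.97 FPKM in injury-activated cells.

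Of 36 genes associated with quiescence that passed the filter 7 (19.4%) were higher and 17 (47.2%) lower with a median of -0.76, shares near those of all genes. The counts were 7 and 11 (19.4% and 30.6%) with a median of -0.24 after trimmed mean scaling. The cell cycle inhibitor Cdkn1b was at 57.1 and 127 FPKM in unperfused and 1.88 and 3.36 FPKM in PBS-perfused cells. The forkhead factor Foxo3, which is needed to keep satellite cells quiescent, was at 0.154 and 0.0185 FPKM against 3.16 and 6.78 FPKM. Calcr, the calcitonin receptor of quiescent satellite cells, was at 19.9 and 27.2 FPKM against 53.1 and 44.1 FPKM with no overlap. Its lower call (-1.03 ± 0.33, adjusted p = 0.0256) was lost after trimmed mean scaling (-0.51, adjusted p = 0.233) and when any 1 of the 4 libraries was left out, with differences of -0.90 and -1.16 without PBS-perfused replicate 1 and 2, and -0.81 and -1.24 without unperfused replicate 1 and 2. Spry1, the Sprouty protein that returns satellite cells to quiescence, was at 10.7 and 6.94 FPKM against 58.02 and 41.8 FPKM (-2.38 ± 0.27, adjusted p = 8.59e-05). Spry1 and Spry2 thus differed in opposite directions.

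In the Notch pathway a ligand, a receptor and 3 further components of signal transfer were higher in unperfused cells. Lower members included the target genes Hes1, Hey1 and Heyl, but also Rfng. Of 25 members past the filter 5 (20%) were higher and 9 (36%) lower, near the shares of all genes, and 9 and 9 (36% each) after trimmed mean scaling. The ligand Jag1 was at 151 and 234 FPKM in unperfused and 10.02 and 7.27 FPKM in PBS-perfused cells, the receptor Notch2 at 166 and 269 FPKM against 4.90 and 10.5 FPKM (4.69 ± 0.36, adjusted p = 9.64e-06). The coactivator Maml2 was at 3.16 and 1.87 FPKM in PBS-perfused cells and higher by 4.17 ± 0.25 in unperfused cells. Rbpj, the DNA-binding partner of cleaved Notch, was at 43.5 and 41.7 FPKM against 28.5 and 20.2 FPKM. The Rbpj call (0.80 ± 0.24, or 1.33 after trimmed mean scaling) was lost with only the 4 libraries in the model (adjusted p = 0.0641), without PBS-perfused replicate 2 (0.56), without unperfused replicate 1 or 2 (0.77 and 0.83) and with the correction for GC content and length (0.42). The receptor-cleaving protease Adam10 was at 156 and 174 FPKM against 34.8 and 14.8 FPKM. These 5 had both unperfused libraries above both PBS-perfused ones. Notch1 and Notch3, the other receptors of satellite cells, were not called and overlapped between the groups, with differences of -0.27 ± 0.34 and -0.26 ± 0.34. Without PBS-perfused replicate 1 both were called lower, at -0.84 and -0.85, and without PBS-perfused replicate 2 the differences were 0.29 and 0.32. After trimmed mean scaling they were 0.24 and 0.27. The target gene Hes1, a repressor induced by cleaved Notch, was at 0.341 and 0.666 FPKM against 29.3 and 34.3 FPKM (-4.45 ± 0.21, adjusted p = 1.19e-06). Hey1 was at 5.50 and 7.77 FPKM against 43.2 and 34.2 FPKM and Heyl at 74.8 and 56.1 FPKM against 178 and 127 FPKM. The Hes family member Hes6, which opposes Hes1, was at 0.693 and 0.801 FPKM against 13.2 and 16.1 FPKM. Rfng was at 1.16 and 2.39 FPKM against 14.5 and 11.6 FPKM (-2.37 ± 0.24, adjusted p = 4.79e-05). Hes1 in PFA-perfused cells was at 64.9 and 51.9 FPKM and in injury-activated cells at 0.559 and 0.578 FPKM, the latter in the range of unperfused cells.

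Growth factor receptors and their feedback inhibitors gave 4 higher and 12 lower calls among 30 (13.3% and 40%, near the shares of all genes), and 5 and 11 (16.7% and 36.7%) after trimmed mean scaling. Besides Spry2, Spry4 was at 170.2 and 239.8 FPKM in unperfused and 35.6 and 22.4 FPKM in PBS-perfused cells. The LIF receptor Lifr was at 88.2 and 147 FPKM against 13.9 and 8.89 FPKM and the IGF1 receptor Igf1r at 58.7 and 81.3 FPKM against 16.7 and 24.98 FPKM. Other feedback genes of the list, Spry1 (given above) among them, differed the other way. Socs1, an inhibitor of JAK kinases, was at 0.37 and 0.602 FPKM against 27.1 and 34.9 FPKM, the ERK phosphatase Dusp5 at 3.09 and 2.63 FPKM against 46.2 and 117 FPKM and the EGF receptor inhibitor Errfi1 at 182 and 156 FPKM against 1349 and 1038 FPKM.

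Immediate early genes were lower in unperfused cells for most members called. Of 41 that passed the filter 4 were higher and 25 lower (61% of them, beside 40.1% of all genes), with a median of -1.18. After trimmed mean scaling 5 were higher and 21 lower (51.2%, beside 25.8% of all genes), with a median of -0.65. Without unperfused replicate 2 the counts were 2 and 21. Their summed FPKM was 6486 and 8328 in the unperfused libraries and 16641 and 16369 in the PBS-perfused libraries. Egr1 was at 316 and 343 FPKM in unperfused and 3170.2 and 3144 FPKM in PBS-perfused cells (-3.26 ± 0.36, adjusted p = 7.68e-05). The AP-1 subunit Jun was at 74.7 and 153 FPKM against 573 and 1163 FPKM and Junb at 31.5 and 31.99 FPKM against 740.4 and 1054 FPKM. These 3 transcription factor genes showed no overlap between the groups.

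Fos, the AP-1 partner of Jun, was less far apart. It was at 192 and 369 FPKM in unperfused and 469 and 698 FPKM in PBS-perfused cells, a lower call (-1.10 ± 0.36, adjusted p = 0.0265) that was lost after trimmed mean scaling (-0.56, adjusted p = 0.261), in the fit of only the 4 libraries (adjusted p = 0.0629), without PBS-perfused replicate 2 (-0.81) and without unperfused replicate 1 (-0.63). Ier2 was at 43.9 and 30.5 FPKM against 1476 and 976 FPKM, the MAP kinase phosphatase Dusp1 at 61.1 and 83.6 FPKM against 1419.6 and 552 FPKM and the stress-induced factor Atf3 at 58.2 and 57.4 FPKM against 155 and 257 FPKM. Higher in unperfused cells were the antiproliferative gene Btg1, at 2648 and 4047 FPKM against 1285 and 1162 FPKM, and the Krüppel-like factor Klf10, at 76.5 and 77.6 FPKM against 43.02 and 33.8 FPKM. Klf4 was at 133 and 203 FPKM against 73.99 and 84.4 FPKM, a higher call (1.05 ± 0.27) that was lost without unperfused replicate 2 (0.75, adjusted p = 0.0551). Every immediate early gene named here stood higher in PBS-perfused than in injury-activated cells except Klf10, at 111 and 103 FPKM in the latter.

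Heat shock chaperones were lower in unperfused cells for 22 of 33 members past the filter (66.7%, beside 40.1% of all genes) and higher for 2, with a median of -1.40. After trimmed mean scaling 17 (51.5%, beside 25.8% of all genes) were lower and 3 higher, with a median of -0.86. Hspa1a, the inducible form of Hsp70, was at 33.5 and 109 FPKM in unperfused and 4151 and 3876 FPKM in PBS-perfused cells (-6.02 ± 0.51, adjusted p = 1.6e-05). Hspa1b was at 14.5 and 49.3 FPKM against 710.2 and 778 FPKM, and reads of this pair may be split between them. The unperfused libraries differed from each other for both genes, with replicate 2 the higher, and stayed far below the PBS-perfused libraries. Hspe1, the lid of the mitochondrial chaperonin, was at 5.38 and 7.02 FPKM against 46.1 and 61.5 FPKM, and Hspd1, which forms its barrel and starts from the same promoter stretch, at 427 and 479 FPKM against 1069 and 1336 FPKM. The cochaperone Dnaja4 was at 5.43 and 11.9 FPKM against 58.3 and 67.3 FPKM. Fkbp4, a partner of Hsp90, was at 14.6 and 18.6 FPKM against 77.9 and 78.6 FPKM. Of the 10 heat shock genes with the letters GAANNTTC in the promoter window, 7 were lower on both scales. In the whole list 22 of 33 were lower, or 17 of 33 after trimmed mean scaling. Only heat shock genes with the letters and a lower call were printed above. The other 3 of the 10 were not called. These were Dnaja1 (-0.52 ± 0.27, or 0.0062 after trimmed mean scaling and -0.90 and called lower with the GC and length correction), Hspb6 (-0.44 ± 0.20, or -0.78 and called lower with a pseudocount of 0.1) and Dnajb6, which also has the longer form (-0.78 ± 0.32, or -1.04 and called lower without PBS-perfused replicate 2). The transcription factor Hsf2 differed the other way, at 38.8 and 59.8 FPKM in unperfused and 0.956 and 1.36 FPKM in PBS-perfused cells (4.52 ± 0.24, adjusted p = 1.67e-06). The testis-type Hsp70 gene Hspa2 was the other higher member, at 17.4 and 17.7 FPKM against 6.15 and 9.40 FPKM.

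Among NF-kB and inflammatory genes 28 of 32 past the filter (87.5%) were lower and 0 higher in unperfused cells, with a median of -1.55, and 21 (65.6%) and 0 with a median of -1.03 after trimmed mean scaling. Nfkb2, which encodes the p52 subunit, was at 16.01 and 16.5 FPKM in unperfused and 113 and 198 FPKM in PBS-perfused cells, and Nfkbia at 233 and 169 FPKM against 526 and 673 FPKM. Bcl3, a nuclear partner of p52, was at 1.91 and 3.04 FPKM against 17.6 and 49.3 FPKM. Cebpb, a partner of Cebpd, was at 0.924 and 7.32 FPKM against 37.7 and 158 FPKM and differed between the libraries of both groups, which did not overlap. The neutrophil growth factor Csf3 was at 0.0576 and 0.0972 FPKM against 26.4 and 8.99 FPKM. Cxcl1, which attracts neutrophils, was at 878 and 848 FPKM against 2377 and 7159 FPKM. Its lower call (-2.26 ± 0.67, adjusted p = 0.0175) was lost after trimmed mean scaling (-1.72, adjusted p = 0.0508), without PBS-perfused replicate 2 (-1.46), without unperfused replicate 1 (-2.28) and without unperfused replicate 2 (-2.23). Both unfixed groups were far above PFA-perfused cells for Cxcl1, which were at 22.5 and 4.14 FPKM. Of the 6 genes of this list with the NF-kB letters in the promoter window, 5 were lower and Cxcl2 was not called. The lower share was 87.5% in the list and 40.1% over all genes. After trimmed mean scaling 2 of the 6 were lower, beside 65.6% of the list and 25.8% of all genes. These few genes were thus not set apart from the rest of the list by a larger share of lower calls on both scales. Markers of endothelium and leukocytes, given further on, moved in the same direction as this list.

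**Figure D3:**
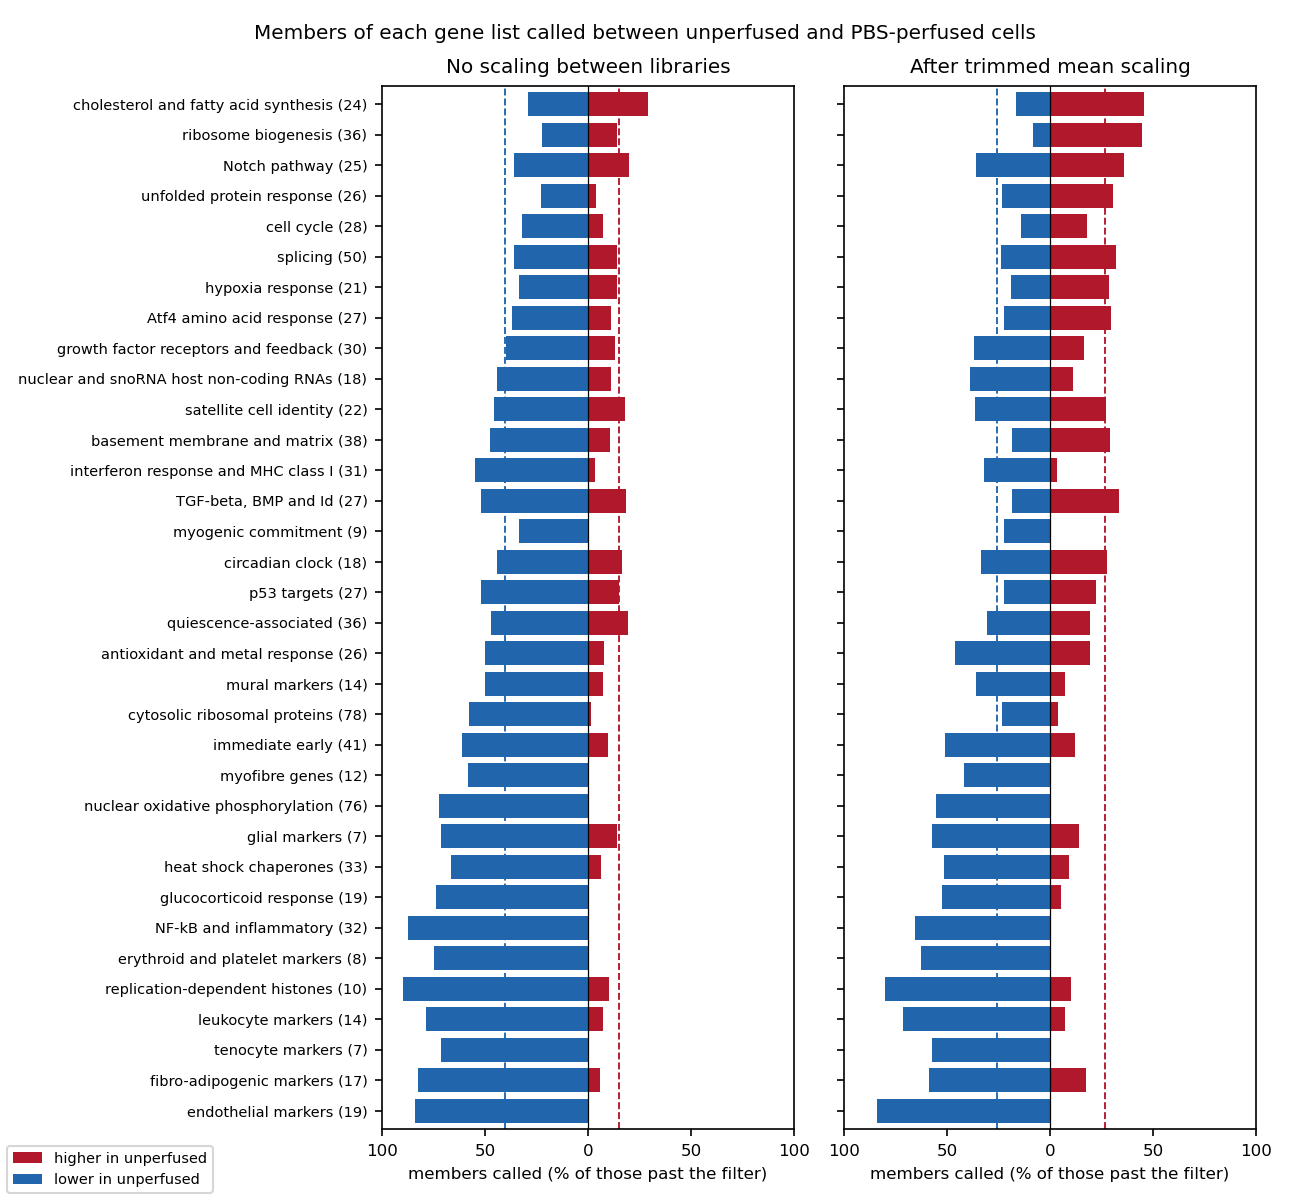
Share of the members of each gene list called higher (red, to the right) or lower (blue, to the left) in unperfused cells, in percent of the members past the filter, whose number is in brackets. The left panel has no scaling between libraries and the right panel trimmed mean scaling, and dashed lines mark the same shares over all 10850 genes (15% and 40.1% at left, 26.9% and 25.8% at right). Lower calls made up 87.5% of NF-kB and inflammatory genes and 84.2% of endothelial markers in the left panel, but 10 of the 19 endothelial markers passed the filter only through the PBS-perfused libraries, where they are high.

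Of 20 glucocorticoid-responsive genes, 19 passed the filter. They had 14 lower (73.7%, beside 40.1% of all genes) and 0 higher calls, with a median of -1.47. After trimmed mean scaling they had 10 (52.6%, beside 25.8% of all genes) and 1, with a median of -1.28. Cebpd, described above, and Errfi1 belong to this list too. The clock gene Per1, which glucocorticoids induce directly, was at 4.97 and 6.28 FPKM in unperfused and 37.4 and 58.1 FPKM in PBS-perfused cells. The metallothionein Mt2 was at 644 and 279 FPKM against 4435 and 4828 FPKM.

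Among 26 antioxidant and metal response genes 13 (50%, beside 40.1% of all genes) were lower and 2 (7.69%) higher. After trimmed mean scaling 12 (46.2%, beside 25.8% of all genes) were lower and 5 (19.2%, beside 26.9%) higher. The cytosolic superoxide dismutase Sod1 was 1 of the 2 higher members, at 538 and 451 FPKM in unperfused and 20.2 and 31.005 FPKM in PBS-perfused cells (4.24 ± 0.26, adjusted p = 3.14e-06). The autophagy receptor Sqstm1 was at 130.0 and 113 FPKM against 758 and 1119 FPKM and the glutathione transferase Gstm1 at 106 and 40.97 FPKM against 396 and 437 FPKM. The ferritin heavy chain Fth1 was at 947 and 411 FPKM against 2461 and 3144 FPKM. Hmox1, the heme-degrading enzyme, was at 687 and 172 FPKM against 344 and 2242 FPKM, so the groups overlapped and it was not called (-1.35 ± 0.81). Without PBS-perfused replicate 1 the Hmox1 difference was -2.70 and called, and without PBS-perfused replicate 2 it was 0.00.

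Unfolded protein response genes gave 1 higher and 6 lower calls among 26 (3.85% and 23.1%, both under the shares of all genes). After trimmed mean scaling there were 8 and 6 (30.8% and 23.1%, near the shares of all genes). The lower ones included the transcription factor Xbp1, at 36.5 and 32.4 FPKM in unperfused and 396 and 244 FPKM in PBS-perfused cells, and the cochaperone Dnajb9, at 22.9 and 18.3 FPKM against 259 and 159 FPKM. Ddit3 (CHOP), induced when this stress persists, was at 10.2 and 6.26 FPKM against 43.4 and 41.3 FPKM. Genes of the Atf4 amino acid response had 3 higher and 10 lower calls among 27 (11.1% and 37%, near the shares of all genes). After trimmed mean scaling the list had 8 and 6 (29.6% and 22.2%). Its higher count was 0 and 1 without PBS-perfused replicate 1 or 2, and 0 and 5 without unperfused replicate 1 or 2. The glutamine transporter Slc1a5 was lower, at 18.9 and 11.9 FPKM against 68.5 and 96.3 FPKM. Slc3a2, the heavy chain of amino acid exchangers, was at 55.7 and 45.4 FPKM against 223 and 230.2 FPKM.

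Hypoxia response genes gave 3 higher and 7 lower calls among 21 (14.3% and 33.3%), or 6 and 4 (28.6% and 19%) after trimmed mean scaling. The p53 targets gave 4 and 14 among 27 (14.8% and 51.9%), or 6 and 6 (22.2% each) after scaling. Except for the 51.9%, these shares were near or under those of all genes. Without unperfused replicate 2 the p53 counts were 2 and 11. The neuronal-type glucose transporter Slc2a3 was at 48.5 and 45.2 FPKM in unperfused and 21.5 and 11.6 FPKM in PBS-perfused cells, while the common type Slc2a1 was at 17.6 and 13.2 FPKM against 42.5 and 62.9 FPKM. Ddit4, an mTOR inhibitor, was at 0.2 and 0.395 FPKM against 5.32 and 7.95 FPKM. Of the p53 targets, the kinase Plk2 was at 567 and 451 FPKM against 188 and 143 FPKM and its relative Plk3 at 8.76 and 7.74 FPKM against 96.3 and 90.3 FPKM. The growth arrest gene Gadd45a was at 84.01 and 103 FPKM against 519 and 425 FPKM and the death receptor Tnfrsf10b at 8.79 and 9.46 FPKM against 1.48 and 1.44 FPKM. Opposite directions within a family were thus seen for glucose transporters and for Polo-like kinases.

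Markers of other cell types mostly moved with the groups, with the mural list nearest to the background. Their lower shares stand beside 40.1% of all genes, or 25.8% after trimmed mean scaling. The stain for other cells used CD31 (encoded by Pecam1), CD45 (Ptprc) and Sca-1 (Ly6a). Pecam1 was at 1.71 and 1.87 FPKM in unperfused and 33.9 and 19.7 FPKM in PBS-perfused cells (-3.27 ± 0.32, adjusted p = 3.5e-05), and Ly6a at 0.535 and 0.687 FPKM against 17.7 and 19.3 FPKM (-3.60 ± 0.19, adjusted p = 1.6e-06). Ptprc was below the filter, at 0 and 0.0195 FPKM against 0.119 and 0.0805 FPKM. Transcripts of 2 of these 3 surface proteins were thus above 10 FPKM in both PBS-perfused libraries and below 2 FPKM in both unperfused libraries.

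For endothelium, 19 of 22 markers passed the filter, 10 of them only through the PBS-perfused libraries. Of the 19, 16 (84.2%) were lower and 0 higher in unperfused cells on both scales. The 4 defining markers Pecam1, Cdh5, Kdr and Cldn5 summed to 2.82 and 2.74 FPKM in unperfused and 111 and 72.3 FPKM in PBS-perfused cells. Cdh5 was at 0.447 and 0.398 FPKM against 3.27 and 2.22 FPKM and the VEGF receptor Kdr at 0.111 and 0.102 FPKM against 3.03 and 1.40 FPKM, so both were under 5 FPKM also in PBS-perfused cells, unlike Cldn5. Ly6c1, a surface protein of capillary endothelium, was at 0.203 and 0.256 FPKM against 33.2 and 39.1 FPKM. The defining markers summed to 7.21 and 4.18 FPKM in PFA-perfused cells, which share the Pax7-nGFP label, and the whole list summed to 59.98 and 49.6 FPKM in unperfused and 494 and 419 FPKM in PBS-perfused cells.

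For leukocytes, 14 of 28 markers passed, 9 of them only through the PBS-perfused libraries. Of the 14, 11 (78.6%) were lower and 1 higher, or 10 (71.4%) and 1 after trimmed mean scaling. The defining markers Ptprc, Cd74, Lyz2 and Tyrobp summed to 4.77 and 2.93 FPKM in unperfused and 36.7 and 26.5 FPKM in PBS-perfused cells. The lysozyme gene Lyz2 was at 0.39 and 0.32 FPKM against 13.4 and 13.3 FPKM and the invariant chain Cd74 at 4.38 and 2.58 FPKM against 23.1 and 12.7 FPKM, while Tyrobp stayed under 1 FPKM in all 4 libraries. Ptprc and Tyrobp were listed at 0 in unperfused replicate 1. The whole list summed to 61.6 and 39.7 FPKM against 112 and 108 FPKM. The lysosomal protein Cd68 was the higher member, at 32.1 and 22.98 FPKM against 5.77 and 11.6 FPKM. For erythroid cells and platelets, 8 of 19 passed, 5 only through the PBS-perfused libraries, and 6 (75%) were lower, or 5 (62.5%) after scaling. The beta globin gene Hbb-bs was at 4.43 and 0.412 FPKM against 41.6 and 60.99 FPKM, and Hbb-bt and the heme synthesis gene Alas2 were below the filter. The 4 defining erythroid markers summed to 5.72 and 0.781 FPKM against 97.6 and 116 FPKM, and the whole list of both cell types to 15.9 and 8.75 FPKM against 124 and 144 FPKM. The platelet gene Pf4 was at 0.348 and 0.492 FPKM against 1.18 and 1.29 FPKM, a lower call (-0.66 ± 0.20) lost after trimmed mean scaling (-0.45), without PBS-perfused replicate 2 (-0.62) and without unperfused replicate 1 (-0.58). Itga2b, a platelet integrin, was not called (-0.17 ± 0.17, or 0.09 after scaling) and Ppbp was below the filter.

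For fibro-adipogenic cells, the connective tissue progenitors of muscle, 17 of 20 markers passed, 5 only through the PBS-perfused libraries. Of the 17, 14 (82.4%) were lower and 1 higher, or 10 (58.8%) and 3 after trimmed mean scaling. The higher member was Dpt, at 474 and 456 FPKM in unperfused and 69.4 and 259.8 FPKM in PBS-perfused cells, whose 2 libraries were far apart. The higher call of Dpt was lost without unperfused replicate 1. The defining markers Pdgfra, Ly6a, Dcn and Lum summed to 9.27 and 5.96 FPKM in unperfused and 73.7 and 79.3 FPKM in PBS-perfused cells. Decorin (Dcn) was at 6.46 and 3.23 FPKM against 44.8 and 48.7 FPKM and lumican (Lum) at 2.19 and 1.08 FPKM against 8.91 and 9.68 FPKM. The receptor Pdgfra was at 0.0843 and 0.965 FPKM against 2.29 and 1.69 FPKM, a lower call (-1.03 ± 0.26) lost after trimmed mean scaling (-0.79) and without PBS-perfused replicate 1 (-0.88), and moved to -0.60 without unperfused replicate 1. Hsd11b1, which regenerates active glucocorticoid, was at 9.61 and 9.89 FPKM against 169 and 172 FPKM, but stood higher still in PFA-perfused cells, at 323 and 342 FPKM. The whole list, Dpt included, summed to 945 and 1202 FPKM in unperfused and 1024 and 1152 FPKM in PBS-perfused cells, where the groups overlapped.

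For tenocytes 5 of 7 markers past the filter were lower and 0 higher, or 4 and 0 after trimmed mean scaling, and 3 were lower without unperfused replicate 2. The lower share of tenocyte markers was 71.4%, or 57.1% after scaling. The whole list summed to 164 and 140.4 FPKM in unperfused and 516 and 536 FPKM in PBS-perfused cells. Tenomodulin (Tnmd) was at 1.39 and 0.995 FPKM against 10.4 and 30.3 FPKM. Fibromodulin (Fmod) was not called (-1.13 ± 0.53), but was without PBS-perfused replicate 1 (-1.77) and without either PFA-perfused library, where the adjusted p was 0.0444 and 0.0447. Scx was below the filter. For mural cells 7 of 14 were lower and 1 higher, or 5 and 1 after scaling, and 4 were lower without unperfused replicate 2. The lower share of mural markers was 50% beside 40.1% of all genes, or 35.7% beside 25.8% after scaling. The whole list summed to 314 and 270.1 FPKM against 422 and 619.5 FPKM. Cspg4, a proteoglycan of pericytes, was the higher member, at 2.01 and 2.07 FPKM against 0.507 and 0.865 FPKM, and smooth muscle myosin (Myh11) was lower, at 0.765 and 0.583 FPKM against 5.35 and 4.06 FPKM. The pericyte gene Rgs5 was at 11.3 and 11.4 FPKM against 46.3 and 16.97 FPKM. Its lower call (-1.24 ± 0.37) was lost after trimmed mean scaling (-0.73), without PBS-perfused replicate 1 (-0.54) and without unperfused replicate 1 or 2 (-1.23 and -1.24), and the difference was -1.94 without PBS-perfused replicate 2. Smooth muscle actin (Acta2) was at 33.2 and 15.04 FPKM against 44.9 and 52.9 FPKM. Its lower call (-1.09 ± 0.34) was lost after scaling (-0.57), without PBS-perfused replicate 1 or 2 (-1.20 and -0.97) and without unperfused replicate 2 (-0.54). Without unperfused replicate 1 the difference was -1.63.

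For glia 5 of 7 markers past the filter (71.4%) were lower and 1 higher, or 4 (57.1%) and 1 after trimmed mean scaling. The whole list summed to 505 and 692 FPKM in unperfused and 197 and 189 FPKM in PBS-perfused cells. The myelin gene Mbp was at 2.02 and 1.21 FPKM against 9.54 and 13.2 FPKM, and Sox10, a transcription factor of glia, was below the filter. The adhesion molecule Ncam1, which glia share with nerve and muscle progenitors, differed the other way, at 424 and 630.1 FPKM against 23.2 and 23.7 FPKM (4.41 ± 0.25, adjusted p = 2.13e-06). For myofibres 7 of 12 genes were lower and 0 higher, or 5 and 0 after scaling, with 4 lower without unperfused replicate 2. The lower share of myofibre genes was 58.3%, or 41.7% after scaling. The whole list summed to 88.5 and 77.4 FPKM against 231 and 207 FPKM. The fast-fibre gene Actn3 was at 23.8 and 24.4 FPKM against 126 and 68.7 FPKM. Skeletal actin (Acta1) was not called (-0.94 ± 0.41) except without PBS-perfused replicate 1 (-1.54), Tnnt3 was not called (0.06 ± 0.48) and Myh4 was below the filter. The lower call of muscle creatine kinase (Ckm), at 1.63 and 1.10 FPKM against 3.59 and 7.08 FPKM (-1.37 ± 0.52, adjusted p = 0.0463), was lost after trimmed mean scaling (-1.03) and when any 1 of the 4 libraries was left out, with differences between -0.97 without PBS-perfused replicate 2 and -1.78 without PBS-perfused replicate 1. The part of other cell types in the differences given above was not tested.

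**Figure D4:**
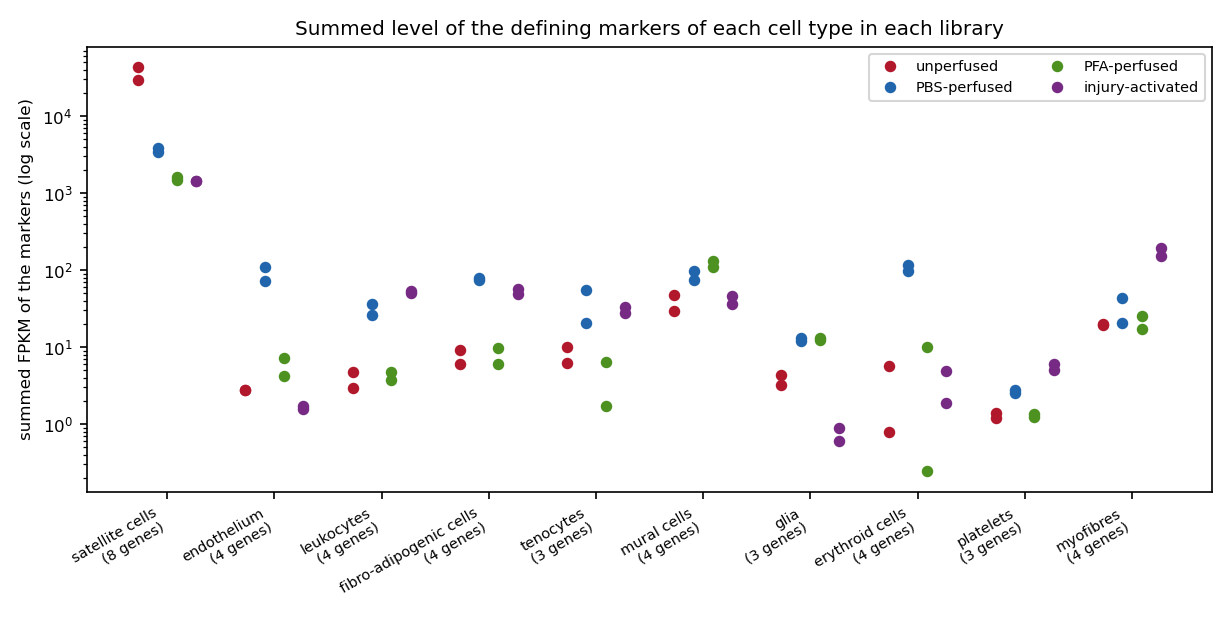
Summed FPKM of the defining markers of satellite cells and of 9 other cell types in each library (log axis), with the number of markers in brackets and 1 point a library, coloured by group. Unperfused libraries lie below PBS-perfused libraries for endothelium, leukocytes, fibro-adipogenic cells, tenocytes, mural cells, glia, erythroid cells, platelets and myofibres, and above them for satellite cells. The gap is small for myofibres (19.6 and 20.2 against 20.7 and 43.3 FPKM), and platelet sums are low in both groups (1.40 and 1.20 against 2.51 and 2.80 FPKM). The satellite cell sum consists mostly of Sdc4.

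Of genes of the translation and respiration machinery, most called members were lower in unperfused cells. Of 78 cytosolic ribosomal protein genes 45 (57.7%, beside 40.1% of all genes) were lower and 1 higher, with a median of -1.07. After trimmed mean scaling 18 (23.1%, beside 25.8% of all genes) were lower and 3 higher, with a median of -0.54. The lower share after scaling was thus near that of all genes and no result about the list. Without PBS-perfused replicate 2 the lower count was 13 and without unperfused replicate 2 it was 12. Rps2, of the small subunit, was at 229 and 162 FPKM in unperfused and 874 and 2452 FPKM in PBS-perfused cells, and Rpl37a at 188 and 64.5 FPKM against 477 and 998 FPKM. Rps25 was the higher member, at 2179 and 2137 FPKM against 382 and 590.2 FPKM. Values of these genes are uncertain because processed pseudogenes share their reads.

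Of 76 nuclear genes of oxidative phosphorylation 55 (72.4%) were lower and 0 higher with a median of -1.22, and 42 (55.3%) and 0 with a median of -0.70 after trimmed mean scaling. The complex I subunit Ndufb2 was at 31.2 and 15.7 FPKM in unperfused and 167 and 152 FPKM in PBS-perfused cells and the complex IV subunit Cox5b at 33.4 and 20.9 FPKM against 170.4 and 184 FPKM. Cox6a1 was at 84.4 and 47.9 FPKM against 293 and 361 FPKM. Complexes I and IV both supplied genes to the largest differences of the list.

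Transcript length and GC content moved with the difference over all genes. With genes in 10 equal bins of length, the median difference was -0.88 in the shortest bin, up to 1271 bases, and 0.01 in the longest. With bins of GC content it was -0.25 in the lowest and -0.92 in the highest. The median longest transcript was 1076 bases for ribosomal protein genes and 1186 bases for oxidative phosphorylation genes, against 2803 bases for heat shock chaperones and 2630.0 bases for NF-kB and inflammatory genes. With a correction for both properties 24 of 78 ribosomal protein genes and 42 of 76 oxidative phosphorylation genes were lower. The heat shock and NF-kB counts were 23 and 28. The first 2 counts fell with the correction and the last 2 did not. Over all genes 4447 of 10794 were lower with this correction. Lengths and GC content came from gene models on GRCm38, another build than that of the deposited values.

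**Figure D5:**
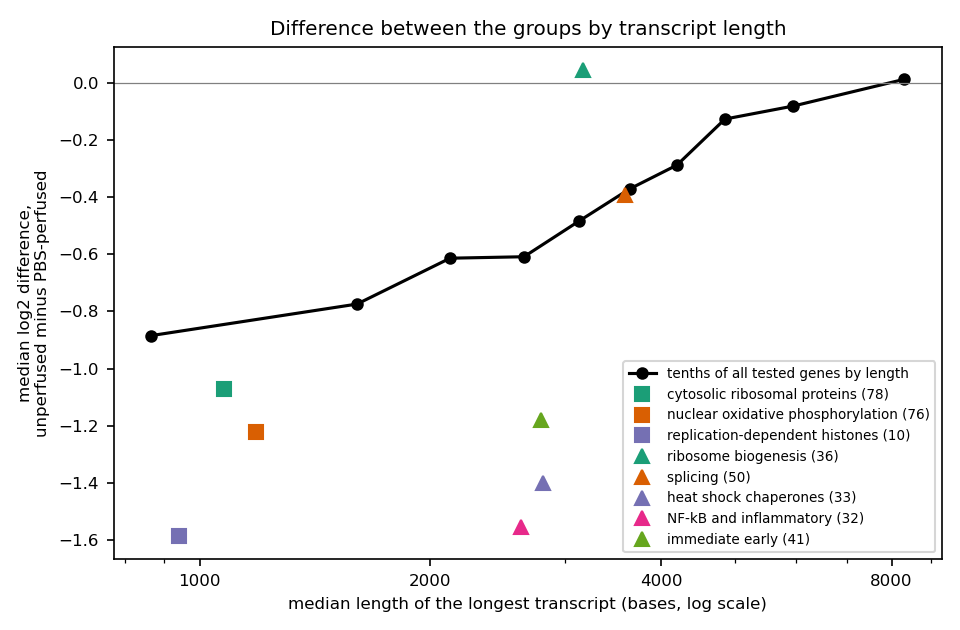
Median log2 difference, unperfused minus PBS-perfused, in 10 equal bins of the tested genes ordered by the length of their longest transcript (black line, log axis), with 8 gene lists at their own median length and median difference. The line rises from -0.88 in the shortest bin to 0.01 in the longest. Heat shock, NF-kB and immediate early genes lie far below the line at their length, and ribosomal protein and oxidative phosphorylation genes lie nearer to it.

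Of 36 ribosome biogenesis genes 5 (13.9%) were higher and 8 (22.2%, beside 40.1% of all genes) lower, with a median of 0.04. After trimmed mean scaling 16 (44.4%, beside 26.9% of all genes) were higher and 3 (8.33%) lower, with a median of 0.55. These counts moved with single libraries, to 4 higher and 5 lower without PBS-perfused replicate 1, 4 and 14 without unperfused replicate 1, and 11 and 3 without unperfused replicate 2. The nucleolar GTPase Gnl3l was at 148 and 195 FPKM in unperfused and 27.2 and 20.3 FPKM in PBS-perfused cells and the RNA polymerase I subunit Polr1b at 145 and 127 FPKM against 42.2 and 34.1 FPKM. Rrs1, a ribosome assembly factor, was at 5.05 and 3.27 FPKM against 69.3 and 74.8 FPKM and the snoRNP protein Gar1 at 1.19 and 0.617 FPKM against 11.4 and 11.4 FPKM. Rn45s, the precursor of ribosomal RNA, was at 137 and 123 FPKM against 4730.0 and 36839 FPKM (-6.66 ± 0.80, adjusted p = 0.000118). The PBS-perfused libraries were far apart for Rn45s, and both lay above the unperfused ones. It made up 0.893% and 6.64% of the summed FPKM in the PBS-perfused libraries and 9.80% and 19.4% in the PFA-perfused libraries. The libraries were made from polyadenylated RNA, so the Rn45s values are uncertain and were not taken as a measure of ribosomal RNA synthesis.

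Nuclear RNAs and splicing factors were mixed. Of 18 members of the list of nuclear and snoRNA host non-coding RNAs 2 (11.1%) were higher and 8 (44.4%) lower, near the shares of all genes. After trimmed mean scaling there were 2 and 7 (11.1% and 38.9%). Malat1, a nuclear RNA of speckles, was at 6017 and 5368 FPKM in unperfused and 35521 and 40899 FPKM in PBS-perfused cells (-2.75 ± 0.38, adjusted p = 0.000281, or 0.0716 in the fit with no filter on low values). Neat1, the scaffold of paraspeckles, was at 280.3 and 181 FPKM against 235 and 461 FPKM, with overlap, and was not called (-0.54 ± 0.42), but was called lower with the correction for GC content and length (-1.16). Mir17hg, the host of the miR-17 cluster, was at 3355 and 3563 FPKM against 454 and 305 FPKM, and the values stand for the host transcript and not for its microRNAs. Of 50 splicing genes 7 (14%) were higher and 18 (36%) lower, near the shares of all genes, and 16 and 12 (32% and 24%) after scaling. Mbnl1, a splicing factor of muscle, was at 262 and 456 FPKM against 30.5 and 10.2 FPKM and Srsf2 at 967 and 1592 FPKM against 139 and 212 FPKM, while Srsf6 was at 81.1 and 67.4 FPKM against 395 and 342 FPKM and U2af1 at 27.1 and 23.6 FPKM against 175 and 114 FPKM. The serine-arginine factors thus held members of both directions.

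Of 38 replication-dependent histone genes 10 passed the filter, and of these 9 (90%) were lower and 1 (Hist1h2bg) higher, or 8 (80%) and 1 after trimmed mean scaling. Their messages lack a poly(A) tail, they are near-identical copies, and the library was made from polyadenylated RNA, so these values are uncertain. Cell cycle genes gave 2 higher and 9 lower calls among 28, or 5 and 4 after scaling, and 4 and 7 without PBS-perfused replicate 1. The cell cycle shares were 7.14% higher and 32.1% lower, or 17.9% and 14.3% after scaling. None of them was above that of all genes. Cyclin D3 (Ccnd3) was at 4.95 and 4.28 FPKM in unperfused and 37.6 and 45.6 FPKM in PBS-perfused cells. The S phase cyclin gene Ccne2 was at 2.72 and 2.76 FPKM against 0.86 and 0.755 FPKM, low in both groups and at 71.7 and 65.6 FPKM in injury-activated cells.

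Of 38 basement membrane and matrix genes 4 (10.5%) were higher and 18 (47.4%) lower, near the shares of all genes, and 11 and 7 (28.9% and 18.4%) after trimmed mean scaling. The aggrecan-cleaving protease Adamts4 was at 389 and 393 FPKM in unperfused and 90.03 and 107 FPKM in PBS-perfused cells and the urokinase receptor Plaur at 906 and 616 FPKM against 309 and 215 FPKM. Collagen-crosslinking Lox was at 5.95 and 5.62 FPKM against 93.7 and 36.1 FPKM and the protease Mmp2 at 72.6 and 72.3 FPKM against 223 and 240.4 FPKM. The 2 proteases thus differed in opposite directions. Of 27 TGF-beta, BMP and Id genes 5 (18.5%) were higher and 14 (51.9%) lower, and 9 and 5 (33.3% and 18.5%) after scaling. Skil, a repressor of SMAD signalling, was at 804 and 1429 FPKM against 142 and 79.6 FPKM. The SMAD target Id1 was at 46.6 and 18.01 FPKM against 129 and 139 FPKM and Id3 at 228 and 100.3 FPKM against 633 and 767 FPKM, while Id2 was at 397 and 528 FPKM against 173 and 181 FPKM. The receptor Tgfbr2 was at 25.1 and 24.6 FPKM against 110.4 and 124 FPKM.

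Clock genes gave 3 higher and 8 lower calls among 18 (16.7% and 44.4%, near the shares of all genes). After trimmed mean scaling there were 5 and 6 (27.8% and 33.3%). The repressor Bhlhe41 was at 81.5 and 152 FPKM in unperfused and 1.53 and 3.49 FPKM in PBS-perfused cells (5.06 ± 0.35, adjusted p = 6.24e-06). The output factor Dbp was at 0.316 and 0.397 FPKM against 4.94 and 9.72 FPKM and Nfil3, which opposes it, at 9.58 and 15.3 FPKM against 42.4 and 45.7 FPKM. The labels used here give no time of day for any library. Interferon and MHC class I genes were lower for 17 (54.8%) and higher for 1 of 31, or for 10 (32.3%) and 1 after scaling. The higher member was Nlrc5, an activator of MHC class I genes, at 3.45 and 2.67 FPKM against 1.43 and 1.36 FPKM, whose difference of 0.76 became 0.27 and was not called with the correction for GC content and length. The light chain B2m was at 74.1 and 81.6 FPKM against 244 and 310.2 FPKM, the immunoproteasome subunit Psmb8 at 1.10 and 1.42 FPKM against 14.98 and 10.02 FPKM and the antiviral membrane protein Ifitm3 at 256 and 148 FPKM against 843 and 1024 FPKM.

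Cholesterol and fatty acid synthesis genes had equal counts, 7 higher and 7 lower of 24 (29.2% each, beside 15% and 40.1% of all genes). After trimmed mean scaling there were 11 and 4 (45.8% and 16.7%, beside 26.9% and 25.8%). Without PBS-perfused replicate 1 the counts were 7 and 4, without PBS-perfused replicate 2 they were 4 and 6 and without unperfused replicate 2 they were 6 and 4. Insig1, which retains the sterol sensor in the endoplasmic reticulum, was at 204 and 368 FPKM in unperfused and 16.7 and 18.01 FPKM in PBS-perfused cells. The fatty acid desaturase Scd2 was at 21.4 and 32.7 FPKM against 8.05 and 4.66 FPKM. The isoprenoid enzyme Idi1 was at 7.94 and 4.81 FPKM against 29.98 and 22.3 FPKM and the sterol carrier Stard4 at 6.13 and 7.20 FPKM against 28.01 and 27.5 FPKM.

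The libraries of a group agreed less for PBS-perfused than for unperfused cells by the count of distant genes. Across genes the libraries correlated at r = 0.978 in unperfused and r = 0.966 in PBS-perfused cells, a description over genes of the same libraries. More than 1 on the log2 scale apart were 384 genes (3.54%) in unperfused and 596 genes (5.49%) in PBS-perfused cells, against 280 in PFA-perfused and 35 in injury-activated cells. The distant genes named here were chosen for that distance after their values were seen. Fgl2, an immune regulator also listed among quiescence-associated genes, was at 539 and 101 FPKM in the PBS-perfused libraries. It was at 10.7 and 9.34 FPKM in the unperfused libraries and was called lower. In PFA-perfused cells, whose label calls them quiescent, Fgl2 was at only 0.417 and 0.482 FPKM, below the 1.27 and 1.13 FPKM of injury-activated cells. The chemokine Cxcl2 was at 61.8 and 406 FPKM against 57.04 and 54.3 FPKM in unperfused cells, and was not called (-1.50 ± 0.65) except without PBS-perfused replicate 1 (-2.85). Replicate 1 was the higher PBS-perfused library for Fgl2, and replicate 2 for Cxcl2, Hmox1 and Rn45s. In unperfused cells the metallothionein Mt1 was at 1338 and 471 FPKM, against 3377 and 2855 FPKM in PBS-perfused cells (-1.97 ± 0.46, adjusted p = 0.00542), and its difference was -1.21 without unperfused replicate 2.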

How the data were processed

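Polyadenylated RNA of 8 libraries in 4 groups was sequenced by the authors. The deposited table gives 1 value per gene symbol and library. Its header names no unit. The values were taken as FPKM made by the authors, from their range and from the software in the submitters' processing notes, which list STAR 2.5.3a, StringTie 1.3.3, R 3.4.1 and the mm9 build without roles. Counts were not used, so depth is unknown.

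Genes at 1 FPKM or more in at least 2 of the 4 unperfused and PBS-perfused libraries were tested with limma 3.58.1 in R 4.3.3 on log2(FPKM + 1), without scaling, with 1 mean per group over all 8 libraries, a variance trend and Benjamini-Hochberg adjustment. The method was first tested on simulated data. The genes named were the 15 largest rises and 15 largest falls (called, at least 10 FPKM in the higher group, no overlap), fixed anchor genes, sort and defining markers, and up to 4 called members per list and direction. Some of these genes are not reported here. Nfkbia, Nfkb2, Dnaja1, Dnaja4, Dnajb6, Fkbp4, Hspb6, Hspd1, Notch1, Notch3, Rbpj, Cxcl2 and Mt1 were named after their values were seen. Members and lists were chosen with earlier results of these data known, so list counts are descriptions. Alternatives were another filter, a pseudocount of 0.1, trimmed mean and quantile scaling, a replicate block, only 4 libraries, and leaving out each library. Removal of Rn45s and Malat1 and a correction for GC content and length were added after seeing the data. Lengths came from GENCODE gene models on GRCm38 and promoters from RefSeq on GRCm38.p6.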

Additional observations from a re-analysis of the deposited data

How the results depend on the processing

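Depth is unknown, so precision rests on 2 libraries a group. The count of 5981 called genes ranged from 4749 to 5958 without 1 library, was 5072 with only the 4 libraries in the model, and was 3925 (1082 higher, 2843 lower) beyond a log2 difference of 1. Higher calls numbered 2920 after trimmed mean and 2696 after quantile scaling, and lower calls 2800 and 2997. The median difference of all genes was 0.0103 and -0.0589 under these scalings, -0.0925 with no filter on low values, and -0.552 to -0.290 without 1 library. For these shifts the cause was not tested, except that scaling sets the centre of each library by construction. The replicate numbers were not treated as pairs in the reported fit. Deviations of same-numbered PBS-perfused and unperfused libraries correlated at 0.016 over genes, and those of PFA-perfused and PBS-perfused libraries at 0.11. With 2 libraries a group such values cannot exclude a batch shared by replicate number. The fit with the replicate number as a block called 6198 genes (1684 higher, 4514 lower). Of 179 named genes with a test (without Dpt and Rfng), 150 kept call and direction in every alternative that could be run. In at least 1 alternative 24 changed call and 9 changed direction. Many of the 179 were chosen for the size of their difference, so these counts do not stand for all genes. Over all 10850 genes trimmed mean scaling alone took away 1555 lower calls and added 1294 higher calls. Without 1 library, values crossed 0 for Cdh15 (-0.52 to 0.16), Myog (-1.10 to 1.32), Mki67 (-0.40 to 0.60), Notch1 (-0.84 to 0.29), Notch3 (-0.85 to 0.32), Hmox1 (-2.70 to 0.0027) and Tnnt3 (-0.31 to 0.43). Trimmed mean scaling turned Cdh15 (0.35), Notch1 (0.24), Notch3 (0.27), Dnaja1 (0.0062) and Itga2b (0.092). Quantile scaling turned Cdh15 (0.026), Notch1 (0.035) and Itga2b (0.35). The GC and length correction turned Cdh15 (0.26), Mki67 (-0.55) and Itga2b (0.084). None of these 9 was called in the reported fit.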
